A study of Mus musculus with 8 samples.

Results

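The 9 genes described here encode molecules that bring recirculating T cells into lymphoid tissue and let them leave it again. They are the selectin ligand gene Selplg, the integrin alpha chain genes Itgal, Itga4 and Itga6, the integrin beta chain genes Itgb2, Itgb1 and Itgb7, and the sphingosine-1-phosphate (S1P) receptor genes S1pr1 and S1pr4. They were chosen by symbol for their known function, with earlier results of these data already known. All 9 were among the 24421 gene symbols of each count file. The libraries came from naive CD4+ T cells isolated with a kit from the spleens of C57BL/6 male mice aged 6 to 8 weeks. Of the 8 libraries, 4 are titled E1KO and 4 E1WT, and the study compared mice with floxed Pcbp1 and a Cd4-driven Cre with wild-type mice. Pcbp1 encodes the RNA-binding protein PCBP1, also called hnRNP E1. Cd4-Cre acts during thymic development and deletes floxed genes in CD4+ and CD8+ T cells.

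The genotype labels contradict the titles in all 8 samples. Libraries titled E1KO carry the genotype Pcbp1+/+Cd4-Cre (WT), and libraries titled E1WT carry Pcbp1fl/flCd4-Cre (KO), so both genotype labels include the Cre. Pcbp1 itself lay at 38.3 to 41.8 CPM (gene counts scaled to library size) in the libraries titled E1KO, against 203 to 243 CPM in those titled E1WT. Libraries are therefore named by title, and every direction below is that of the titles. Labels give all mice as male, yet Xist, an RNA made from an inactive X chromosome, lay at 365 to 425 CPM in E1KO and at 0.550 to 2.89 CPM in E1WT libraries. The Y-linked Ddx3y lay at 52.0 to 57.5 CPM in E1KO and at 103 to 115 CPM in E1WT libraries. Differences between the titles cannot be told apart from this difference in sex-linked RNA. None of the 9 genes lies on a sex chromosome. Libraries held 30794212 to 35914543 gene counts in E1KO and 28264655 to 36738202 in E1WT, and each of the 9 genes had 6233 to 39417 reads in every library. How many mice went into a library is not given in the sources used here.

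Lymphocytes enter lymph nodes and inflamed tissue in steps. Selectins and their sugar-bearing ligands slow the cell on the vessel wall, chemokine signals then switch integrins to a state of high affinity, and integrins hold the cell to immunoglobulin-family ligands on the endothelium. An integrin is a pair of 1 alpha and 1 beta chain, and both chains are needed at the surface. Itgal and Itgb2 encode the chains of LFA-1, the receptor for ICAM-1 and ICAM-2. Itga4 pairs with Itgb1 in VLA-4, which binds VCAM-1 and fibronectin, or with Itgb7 in the gut-homing receptor for MAdCAM-1, while Itga6 pairs with Itgb1 in a laminin receptor. Exit follows the S1P gradient between tissue and blood or lymph, which T cells sense mainly through S1PR1.

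The integrin chains share short motifs in their cytoplasmic tails, through which the cell controls binding from within. The coding stretches of these motifs are shown because they set the alpha chains apart from the beta chains and because genes for the proteins that act on them were also measured. In the alpha chains the motif is GFFKR, next to the membrane, which keeps the paired tails together. The lines give the sense strand of GRCm38 transcripts from GENCODE M21, 5′ to 3′, with the codons of GFFKR in capitals.
Itgal: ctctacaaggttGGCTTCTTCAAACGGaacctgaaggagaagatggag
Itga4: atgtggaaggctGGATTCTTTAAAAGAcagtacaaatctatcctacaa
Itga6: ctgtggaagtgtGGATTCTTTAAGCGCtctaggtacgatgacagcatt

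Each of the 3 stretches spans an exon junction. That of Itgal runs from 127330231 to 127333490 on the plus strand of chromosome 7 and covers the end of exon 30 and the start of exon 31. That of Itga4 runs from 79325686 to 79326558 on chromosome 2 (plus strand, exons 27 and 28), and that of Itga6 from 71849498 to 71855892 on the same chromosome (plus strand, exons 25 and 26). Of the 15 motif bases, 11 were identical between Itgal and Itga4, 11 between Itgal and Itga6 and 12 between Itga4 and Itga6.

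The beta tails carry a pair of motifs of the NPXY type, where X is any residue and the last position is tyrosine or phenylalanine. Talin binds the membrane-near motif and kindlin the distal one. Both motifs are in capitals.
Itgb2: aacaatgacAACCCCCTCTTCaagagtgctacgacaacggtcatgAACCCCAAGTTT
Itgb1: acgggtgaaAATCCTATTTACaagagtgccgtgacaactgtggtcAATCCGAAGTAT
Itgb7: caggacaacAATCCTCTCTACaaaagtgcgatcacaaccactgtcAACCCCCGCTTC

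These stretches also cross an exon junction. That of Itgb2 lies at 77564799 to 77565228 on chromosome 10 (plus strand, exons 15 and 16), that of Itgb1 at 128726184 to 128732076 on chromosome 8 (plus strand, exons 15 and 16), and that of Itgb7 at 102216214 to 102216474 on chromosome 15 (minus strand, exons 14 and 15). Over 57 bases the identity was 64.9% between Itgb2 and Itgb1, 61.4% between Itgb2 and Itgb7 and 59.6% between Itgb1 and Itgb7.

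Of the 9 genes, 4 fell in the E1KO libraries and 0 rose. Those that fell were Itgal, Itga6, Itgb2 and S1pr1, while Selplg, Itga4, Itgb1, Itgb7 and S1pr4 did not pass the test. Genes were tested with edgeR's quasi-likelihood test with an adjusted p below 0.05 over all 13333 genes that passed its filter on low counts, which all 9 did. Across all tested genes 23.3% passed, 12.2% as higher and 11.1% as lower. The median log2 fold was -0.18 over the 9 genes, against 0.0065 over all tested genes. Taken without sign, the median log2 fold was 0.182 over the 9 genes and 0.181 over all tested genes. The 9 genes thus differed from all tested genes in the direction of the median, not in its size. In DESeq2, 5 of the 9 genes passed, all as lower. All 4 E1KO libraries lay below all 4 E1WT libraries for 5 of the 9 genes and above them for 0, where 12.1% and 14% of all tested genes did so. When libraries were scaled by their totals alone, without edgeR's TMM factors, 2 genes passed as lower, Itgal and Itga6, and 1 as higher, Selplg. That scaling moved the median log2 difference over all genes to 0.070, against 0.0070 with TMM factors. Under it all E1KO libraries lay below all E1WT libraries for 4 genes, since Itgb1 overlapped, and above them for 1, Selplg. In bulk RNA, fewer cells of a kind and less RNA per cell cannot be told apart.

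**Figure D1:**
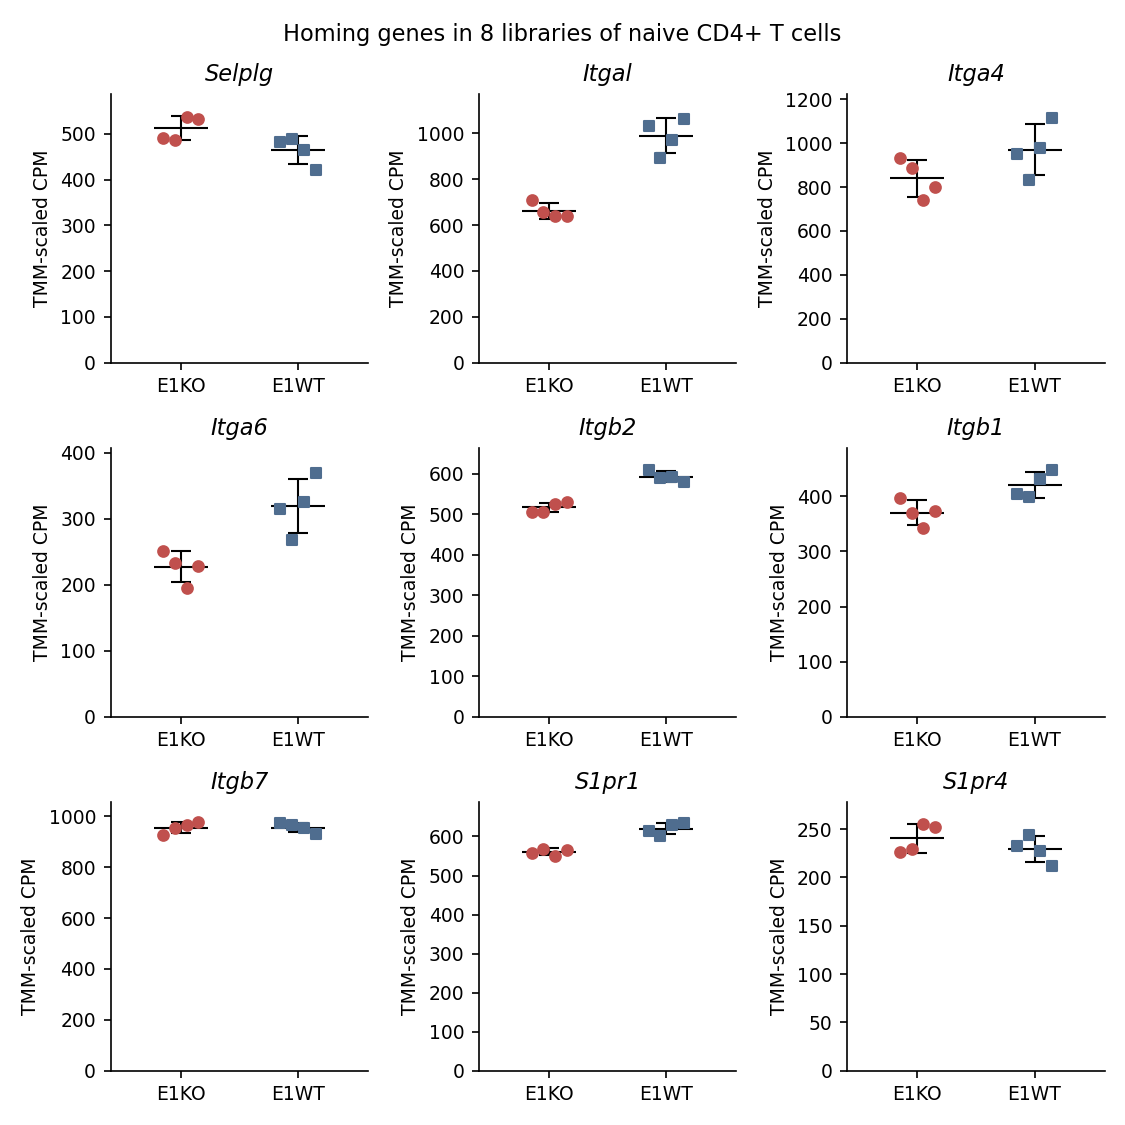
TMM-scaled CPM of the 9 genes (vertical axes from 0) in libraries titled E1KO (circles) and E1WT (squares), replicates 1 to 4 from left to right, with the mean and standard deviation as bars. The titles do not overlap for Itgal, Itga6, Itgb2, Itgb1 and S1pr1, and the widest gap is that of Itgal, with 639 to 711 CPM in E1KO against 894 to 1064 CPM in E1WT.

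Selplg encodes PSGL-1, a mucin-like protein that binds P-selectin and, with suitable sugars, other selectins. Its gene occupies bases 113818536 to 113832644 of chromosome 5 (GRCm38) on the minus strand. Its level was 492, 487, 536 and 533 CPM in the E1KO libraries, against 482, 489, 464 and 420.4 CPM in the E1WT libraries. With TMM scaling the titles overlapped, since E1WT 2 lay above E1KO 2, while with library totals alone every E1KO library lay above every E1WT library. The means were 512 ± 26.3 and 464 ± 30.8 CPM in E1KO and E1WT libraries (SD, n = 4 each), and the log2 fold of 0.14 ± 0.06 (SE) had an edgeR adjusted p of 0.13. With library totals alone it passed as higher, at a log2 fold of 0.21 and an edgeR adjusted p of 0.042.

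Itgal showed the largest difference of the 9 genes. It encodes the alpha L chain, also called CD11a, and spans 127296260 to 127335138 on the plus strand of chromosome 7. Its level was 711, 656, 642 and 639 CPM in E1KO libraries, against 1032, 894, 971 and 1064 CPM in E1WT libraries. Every E1KO library lay below every E1WT library, with a clear gap between the highest E1KO and the lowest E1WT value. The E1KO mean of 662 ± 33.5 CPM was 66.8% of the E1WT mean of 990.3 ± 75.3 CPM (SD, n = 4 each). The log2 fold was -0.58 ± 0.07 (SE), with an edgeR adjusted p of 0.00011. Among all 13333 tested genes it ranked 224 by p-value. It passed with each library left out in turn, at log2 folds of -0.62 to -0.54.

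Itgb2 encodes the beta 2 chain CD18, the partner of the alpha L chain, and spans 77530252 to 77565708 on the plus strand of chromosome 10. It fell by less than Itgal. Values were 507, 507, 525 and 530.2 CPM in E1KO libraries, against 611, 589.9, 592 and 580.0 CPM in E1WT libraries. The titles did not overlap, and within each title the libraries were close together, with coefficients of variation of 2.36% in E1KO and 2.17% in E1WT. The E1KO mean was 87.2% of the E1WT mean, the log2 fold was -0.20 ± 0.05 (SE) and the edgeR adjusted p was 0.012. With library totals alone the log2 fold was -0.14 and the edgeR adjusted p 0.061.

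The balance of the LFA-1 chain RNAs was set side by side in each library. Dividing the read counts of Itgb2 by those of Itgal within each library removes the library scaling. It does not remove differences between libraries that follow exon length, which is 3052 bases for Itgb2 and 6569 for Itgal. The log2 ratio was -0.49, -0.37, -0.29 and -0.27 in E1KO libraries, against -0.76, -0.60, -0.71 and -0.88 in E1WT libraries. All E1KO libraries lay above all E1WT libraries, and the difference of the means was 0.38. Per kb of exon, Itgb2 reads were 1.53 to 1.79 times those of Itgal in E1KO libraries and 1.17 to 1.42 times in E1WT libraries. Ratios between members are given as a description, with no test, because the pairs were chosen with their values known.

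Itga4 encodes the alpha 4 chain CD49d, shared by VLA-4 and the gut-homing integrin. It spans 79255426 to 79333123 on the plus strand of chromosome 2. Its level was 931, 887, 743 and 801 CPM in E1KO libraries, against 953, 832, 978 and 1116 CPM in E1WT libraries. The titles overlapped, E1WT 2 lying below E1KO 1 and E1KO 2. The log2 fold of -0.21 ± 0.09 (SE) had an edgeR adjusted p of 0.14. Without the E1WT 2 library it was -0.27, with an edgeR adjusted p of 0.044, but without the E1WT 4 library it was -0.13 (edgeR adjusted p = 0.32). The 3′ end of Itga4 overlaps Cerkl, a gene on the opposite strand, by 2581 bp. The strand setting of the counting is not given in the sources used here, and without strand the reads of such a pair cannot be told apart. Cerkl itself had 58 to 86 reads per library.

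Itga6 encodes the alpha 6 chain CD49f, which binds laminin in basement membranes, and spans 71745616 to 71858416 on the same chromosome and strand. It fell to 251, 233, 196 and 229 CPM in E1KO libraries, against 315, 269, 325 and 369 CPM in E1WT libraries. The titles did not overlap, though the highest E1KO value came near the lowest E1WT value. The E1KO mean of 227 ± 23.2 CPM was 71.2% of the E1WT mean of 319 ± 41.3 CPM (SD, n = 4 each). The log2 fold was -0.49 ± 0.10 (SE) with an edgeR adjusted p of 0.0042, and it passed with each library left out, at log2 folds of -0.56 to -0.41. Noncoding transcripts and a pseudogene overlap Itga6 on both strands, and none has a row of its own in the count files.

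The alpha chain genes did not move by the same amount. Relative to Itga4 in the same library, Itga6 had log2 ratios of -1.89, -1.93, -1.92 and -1.81 in E1KO libraries, against -1.60, -1.63, -1.59 and -1.60 in E1WT libraries. The titles stood well apart, and the E1WT libraries agreed to within a standard deviation of 0.019. Relative to Itgal, Itga4 had log2 ratios of 0.21 to 0.44 in E1KO libraries and of -0.12 to 0.069 in E1WT libraries, again without overlap. Relative to each of the other alpha chain RNAs, Itga4 was thus higher in every E1KO library than in any E1WT library.

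Libraries differed in how their values followed exon length, and the long alpha chain genes moved with it. Across genes, the Spearman correlation of log2 CPM (relative to each gene's mean over libraries) with exon length ran from -0.32 in E1KO 3 to 0.22 in E1KO 1 and from -0.26 in E1WT 2 to 0.32 in E1WT 4. Itga4 has 13978 exonic bases and Itga6 9025, and the same libraries held the lowest and highest values of both genes in each title. With this trend removed, the standard deviation of log2 CPM of Itga4 was 0.053 among E1KO and 0.058 among E1WT libraries, against 0.15 and 0.17 with the trend in place. The log2 fold of Itga4 was then -0.055 (edgeR adjusted p = 0.38). Itgal and Itga6 stood at -0.56 (edgeR adjusted p = 3.1e-06) and -0.43 (0.00034) without the trend, and Itgb2 at -0.25 (0.00071).

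Itgb1 encodes the beta 1 chain CD29, the most widely shared integrin chain, and spans 128685654 to 128733200 on the plus strand of chromosome 8. Its level was 397, 369.9, 342 and 373 CPM in E1KO libraries, against 403, 399, 432 and 447 CPM in E1WT libraries. No E1KO library reached an E1WT library, but the gap was narrow, and the titles overlapped with library totals alone or with the exon-length trend removed. The log2 fold of -0.18 ± 0.06 (SE) missed the threshold, with an edgeR adjusted p of 0.053. It passed in DESeq2 (adjusted p = 0.031), with the exon-length trend removed (edgeR, 0.022), without the E1KO 1 library (edgeR, 0.029) and without the E1WT 2 library (edgeR, 0.045).

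Itgb7, whose product pairs with alpha 4 for homing to the gut, spans 102215995 to 102231944 on the minus strand of chromosome 15. Its level was 927, 955, 965 and 977 CPM in E1KO libraries, against 972, 965, 953 and 932 CPM in E1WT libraries. The titles overlapped throughout, and both means were 956 CPM (SD 21.4 in E1KO and 17.4 in E1WT, n = 4 each). The log2 fold of 0.00034 ± 0.048 (SE) had an edgeR adjusted p of 0.998, and its sign changed between alternatives. With coefficients of variation of 2.24% in E1KO and 1.83% in E1WT, this was among the most even of the 9 genes within a title.

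The partners of alpha 4 were compared as a ratio. The log2 ratio of Itgb7 to Itgb1 averaged 1.37 ± 0.11 in E1KO and 1.19 ± 0.10 in E1WT libraries (SD, n = 4 each). Of the E1KO libraries only E1KO 1, at 1.22, lay within the range of the E1WT libraries, 1.06 to 1.28. Per kb of exon, Itgb7 reads outnumbered Itgb1 reads 3.44 to 4.16 times in E1KO and 3.07 to 3.57 times in E1WT libraries. The log2 ratio of Itga4 to Itgb1 overlapped fully, at 1.10 to 1.26 in E1KO and 1.06 to 1.32 in E1WT libraries.

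**Figure D2:**
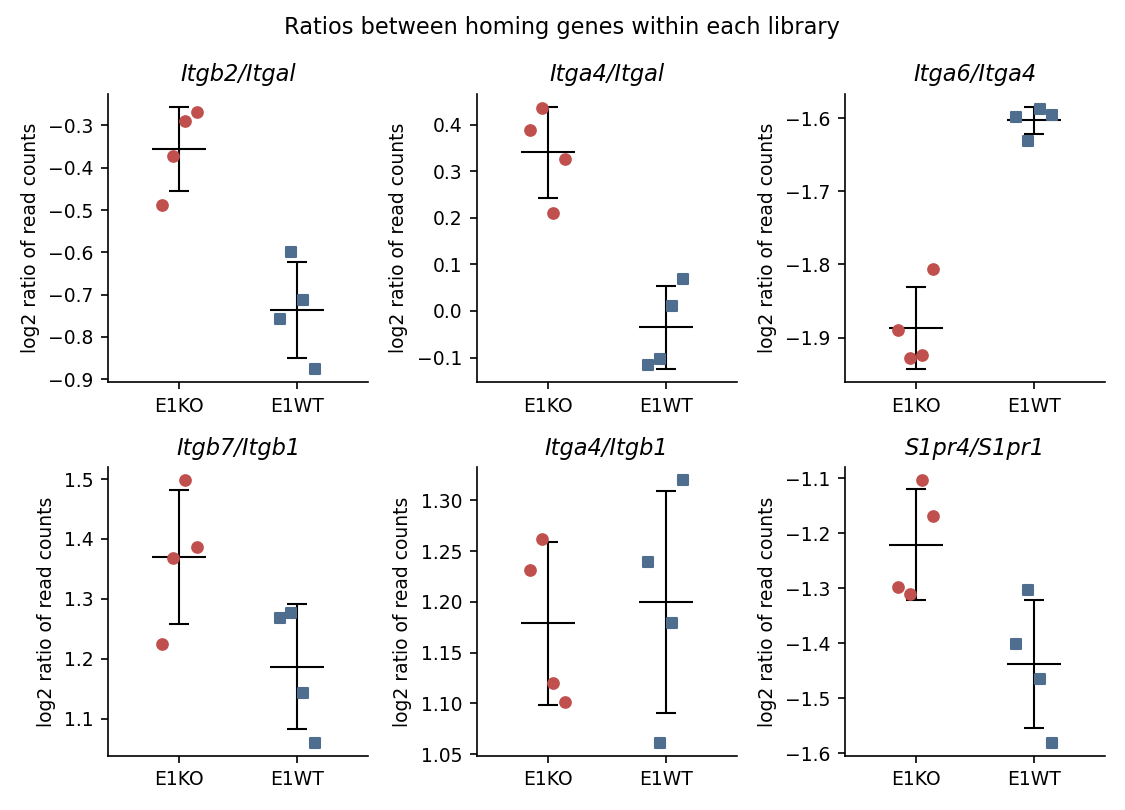
Log2 ratio of read counts between pairs of the 9 genes within each library (vertical axes differ and do not start at 0), E1KO as circles and E1WT as squares, replicates 1 to 4 from left to right, with the mean and standard deviation. Itgb2/Itgal and Itga4/Itgal were higher and Itga6/Itga4 lower in every E1KO library than in any E1WT library, while Itgb7/Itgb1, Itga4/Itgb1 and S1pr4/S1pr1 overlapped.

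S1pr1 encodes the receptor through which T cells follow S1P out of lymphoid organs. It spans 115710433 to 115715072 on the minus strand of chromosome 3. It fell to 557, 569, 549 and 566 CPM in E1KO libraries, against 615, 602, 629 and 634 CPM in E1WT libraries. The titles did not overlap, and the spread within each was small, with coefficients of variation of 1.59% in E1KO and 2.31% in E1WT. The E1KO mean was 90.4% of the E1WT mean, and the log2 fold of -0.15 ± 0.05 (SE) had an edgeR adjusted p of 0.045. That call is close to the threshold. It held in 1 of the 8 fits that left out a library (without E1WT 2, edgeR adjusted p = 0.048) and ended in the others at adjusted p values up to 0.12. It also ended with library totals alone (edgeR adjusted p = 0.20) and without E1KO 1 and E1WT 4 together (edgeR, 0.071). In DESeq2 the adjusted p was 0.0037, in limma-voom 0.043 and with the exon-length trend removed 0.013 (edgeR, log2 fold -0.20). Across all 17 alternatives the call held in 6.

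S1pr4 encodes a further S1P receptor of lymphocytes and is a gene with 1 exon at 81497747 to 81500132 on the minus strand of chromosome 10. Its level was 227, 229, 256 and 252 CPM in E1KO libraries, against 233, 244, 228 and 212 CPM in E1WT libraries. The titles overlapped, and the log2 fold of 0.07 ± 0.06 (SE) had an edgeR adjusted p of 0.44. It was 0.037 without the E1WT 4 library, 0.042 without E1KO 3 and 0.0077 with the exon-length trend removed, but 0.13 with library totals alone, and it was called in none of these. The log2 ratio of S1pr4 to S1pr1 was -1.31 to -1.10 in E1KO and -1.58 to -1.30 in E1WT libraries, the lowest E1KO value lying just below the highest E1WT value.

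**Figure D3:**
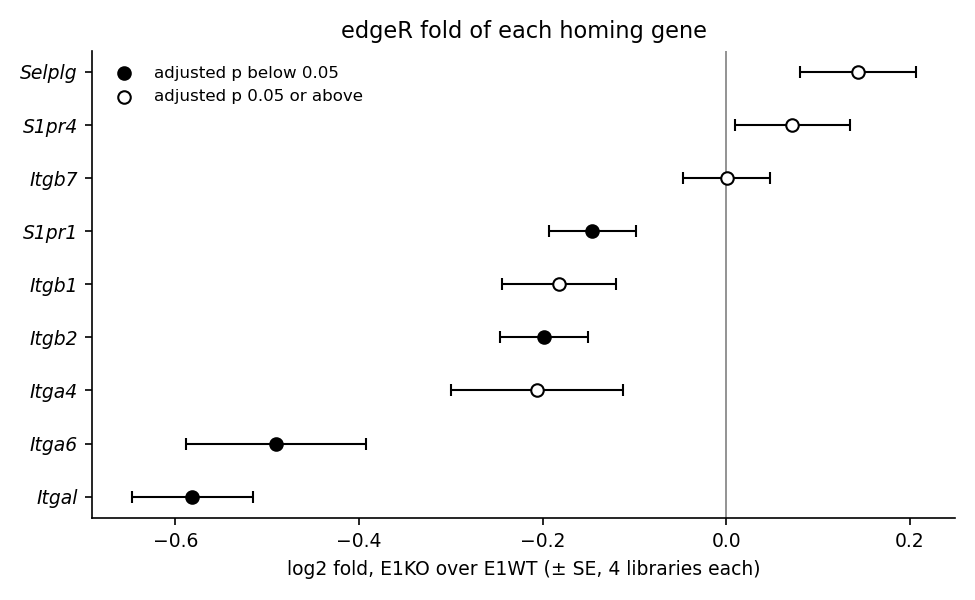
Log2 fold (horizontal axis) of each of the 9 genes in E1KO over E1WT libraries from edgeR, with standard errors as bars. Filled points passed an adjusted p below 0.05, and these were Itgal at -0.58, Itga6 at -0.49, Itgb2 at -0.20 and S1pr1 at -0.15.

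Levels of different genes were compared as CPM per kb of exon. Exon length here joins the exons of all annotated transcripts of a gene, and the order of levels depends on that choice. Before division by length, Itga4 stood at 840.5 CPM in E1KO and 970 CPM in E1WT libraries, and Itgb7 at 956 CPM in both. Itgb7 was the highest of the 9 in both titles, at 345 CPM per kb in each. S1pr1 and Itgb2 followed, with 184 and 169 CPM per kb in E1KO libraries and 204 and 194 CPM per kb in E1WT libraries. The ranges of this pair did not overlap in E1KO but overlapped in E1WT libraries, where S1pr1 was nonetheless the higher in each of the 4. Itga6 was the lowest, at 25.2 CPM per kb in E1KO and 35.4 CPM per kb in E1WT libraries, and Itga4 the next lowest at 60.1 and 69.4 CPM per kb in E1KO and E1WT libraries.

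The middle of the order differed between the titles. Itgal was 6th of 9 in E1KO libraries, at 101 CPM per kb, and 4th in E1WT libraries, at 151 CPM per kb. In E1KO libraries it did not differ beyond its spread from S1pr4, which was also at 101 CPM per kb and was the higher in 2 of 4 libraries, and it lay below Selplg at 119.9 CPM per kb. In E1WT libraries Itgal stood above Selplg in all 4 libraries, and the ranges of Selplg, Itgb1 and S1pr4, at 109, 103 and 96.0 CPM per kb, overlapped from one to the next.

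**Figure D4:**
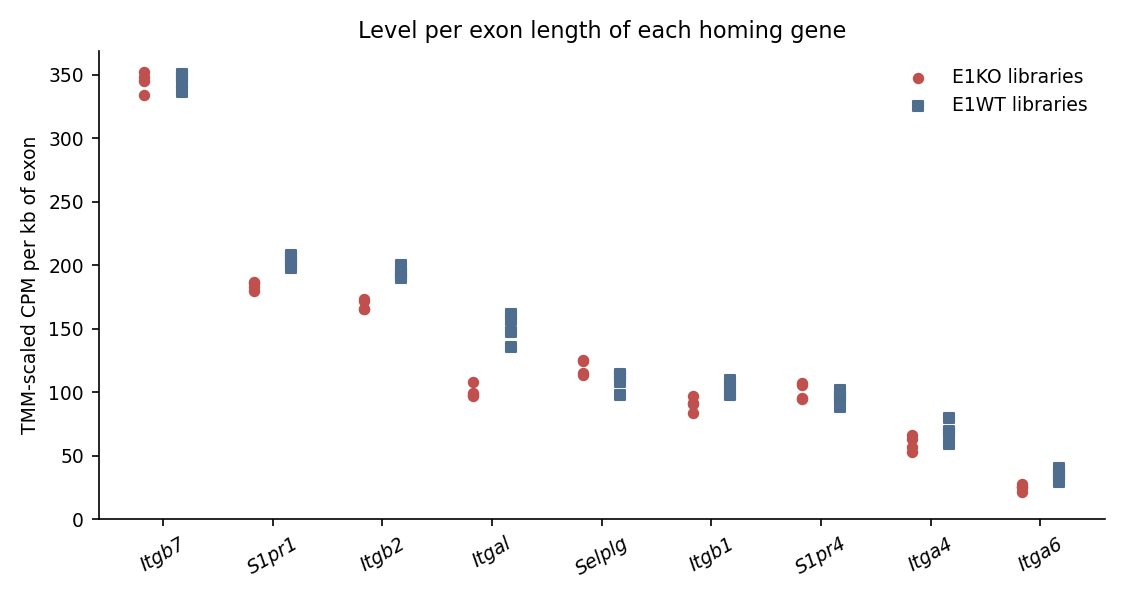
TMM-scaled CPM per kb of exon (vertical axis from 0) for the 9 genes in each E1KO (circles) and E1WT (squares) library, ordered by the E1WT mean. Itgb7 stands highest at 345 CPM per kb in both titles, and Itgal lies below Selplg in E1KO libraries and above it in E1WT libraries.

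For Itga6, Itgb2 and S1pr1, the 2 other well-expressed genes with the most similar profile over the 8 libraries were found by the root mean square difference of centred log2 CPM. Nearest to Itga6 were Rapgef6 (0.033) and Ash1l (0.036), against a median of 0.30 over 7342 candidate genes. Itgb2 was matched by Rpsa (0.026) and Tmem8 (0.027), against a median of 0.16. S1pr1 was matched by Smg5 (0.015) and Hltf (0.024), against a median of 0.14. The measure uses both the difference between titles and the spread within them. Picking the nearest of 7342 candidates gives a value well below their median whichever gene is matched, so the contrast marks no particular similarity. For Itgb7, which did not pass, the nearest gene lay at 0.023, against a median of 0.13.

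Other genes of homing and egress were described from 6 lists, also chosen with earlier results of these data known. Of their 102 genes, 96 were tested. Of these 24 rose and 7 fell, or 25% and 7.29%, against 12.2% and 11.1% of all tested genes, and the median log2 fold was -0.013, close to that of all tested genes.

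Enzymes that build selectin ligands were higher where they passed. In that list 5 of 14 tested members rose and 0 fell, against 12.2% and 11.1% of all tested genes. Their median log2 fold was 0.097. Fut7 and Fut4, fucosyltransferases that complete the sialyl Lewis x sugar on PSGL-1, rose by 0.83 ± 0.20 and 1.02 ± 0.22 on the log2 scale (edgeR adjusted p = 0.012 and 0.0074). Their levels were low, with 4.47 CPM of Fut7 and 3.31 CPM of Fut4 in E1KO libraries, against 2.52 and 1.64 CPM in E1WT libraries. Slc35c1, the GDP-fucose transporter of the Golgi, rose by 0.25 ± 0.06 and the sialyltransferase gene St3gal4 by 0.35 ± 0.09 (edgeR adjusted p = 0.0072 and 0.015), while without the E1WT 1 library St3gal4 missed the threshold (edgeR, 0.052).

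Among selectins and counter-receptors 4 of 13 tested members rose and 1 fell, against 12.2% and 11.1% of all tested genes. Their median log2 fold was 0.21. Icam1, a ligand of LFA-1, rose to 50.0 ± 3.33 CPM in E1KO libraries, against 37.8 ± 2.77 CPM in E1WT libraries (edgeR adjusted p = 0.0024). Fn1, the fibronectin bound by VLA-4, stood at 18.5 ± 2.36 CPM in E1KO and 9.70 ± 1.24 CPM in E1WT libraries (edgeR adjusted p = 0.00028). Selp, the P-selectin of platelets and endothelium, stood at 1.38 ± 0.32 CPM in E1KO and 0.316 ± 0.203 CPM in E1WT libraries (edgeR adjusted p = 0.0088), on 1 to 56 reads per library. Platelet markers summed to 8.47 to 10.4 CPM in E1KO and 5.52 to 7.97 CPM in E1WT libraries, but 0 of 3 tested members passed. Most of that sum was Itga2b, at 7.60 CPM in E1KO and 5.69 CPM in E1WT libraries (edgeR adjusted p = 0.10), whose titles overlapped. Endothelial and stromal markers summed to 4.76 to 11.3 CPM in E1KO and 6.30 to 9.45 CPM in E1WT libraries, and 0 of 7 passed. Those of monocytes and macrophages summed to 70.6 to 85.7 CPM in E1KO and 29.8 to 36.8 CPM in E1WT libraries (4 of 8 higher). The part of any of these cells in the Selp and Fn1 values was not tested.

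Genes that switch integrins on or link them to actin passed in both directions. Of 23 tested members 3 rose and 4 fell, against 12.2% and 11.1% of all tested genes. Their median log2 fold was -0.084. Those that fell include Fyb, the adaptor ADAP that couples the T cell receptor to integrins (629 ± 29.7 CPM in E1KO and 775 ± 41.7 CPM in E1WT libraries, log2 fold -0.30 ± 0.06, edgeR adjusted p = 0.0036). Rhoh, an atypical small GTPase of T cells, and Parvg, the parvin of leukocytes, fell by 0.31 ± 0.06 and 0.25 ± 0.05 on the log2 scale (edgeR adjusted p = 0.0033 and 0.0037). Once the exon-length trend was taken out, Rhoh missed the threshold (edgeR adjusted p = 0.051). Vcl, the actin linker vinculin, rose by 0.65 ± 0.08 (edgeR adjusted p = 0.00025). Fermt3, the kindlin of leukocytes, and Tln1, a talin, whose products bind the beta tails shown above, are named after their values were seen. Fermt3 had a log2 fold of -0.17 ± 0.05 (edgeR adjusted p = 0.035) and Tln1 one of -0.17 ± 0.10 (edgeR adjusted p = 0.22).

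Of 14 other integrin chain genes tested 6 rose and 2 fell, against 12.2% and 11.1% of all tested genes. Their median log2 fold was 0.049, and all those that passed were far less abundant than the 9 genes above. Itga5, the alpha chain of the classical fibronectin receptor, stood at 17.4 ± 0.36 CPM in E1KO and 9.86 ± 0.65 CPM in E1WT libraries (edgeR adjusted p = 5.8e-05). Itgae, the alpha E chain that pairs with beta 7 and binds E-cadherin, stood at 26.9 ± 1.66 CPM in E1KO and 18.9 ± 1.99 CPM in E1WT libraries (edgeR adjusted p = 0.0022). Itgam, the alpha M chain of myeloid and NK cells and a partner of beta 2, stood at 14.6 ± 0.91 CPM in E1KO and 9.37 ± 0.56 CPM in E1WT libraries (edgeR adjusted p = 0.00052). Monocyte and macrophage markers summed to 70.6 to 85.7 CPM in E1KO and 29.8 to 36.8 CPM in E1WT libraries (4 of 8 higher), and dendritic cell markers to 20.5 to 23.9 CPM and 9.80 to 12.4 CPM in E1KO and E1WT libraries (5 of 7 higher). Their part in these values was not tested. Itga7, an alpha chain of laminin receptors, fell to 8.24 ± 0.51 CPM in E1KO libraries, against 14.0 ± 1.63 CPM in E1WT libraries (edgeR adjusted p = 0.00048).

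In the S1P pathway 3 of 20 tested members rose and 0 fell, with a median log2 fold of 0.031, where 12.2% of all tested genes were called higher. The genes of other S1P enzymes on the list, among them Sphk2 and Sgpl1, did not pass. Sphk1, a kinase that makes S1P, stood at 8.85 ± 1.57 CPM in E1KO and 2.56 ± 0.20 CPM in E1WT libraries (log2 fold 1.79 ± 0.15, edgeR adjusted p = 1.9e-05). Mfsd2b, the S1P exporter of red cells and platelets, stood at 31.3 ± 0.33 CPM in E1KO and 14.1 ± 0.53 CPM in E1WT libraries (log2 fold 1.15 ± 0.07, edgeR adjusted p = 1.7e-06). Spns2, the S1P exporter of endothelium, stood at 10.6 ± 0.99 CPM in E1KO and 4.90 ± 0.50 CPM in E1WT libraries (edgeR adjusted p = 7.6e-05). Erythroid markers summed to 108 to 141 CPM in E1KO and 39.0 to 54.5 CPM in E1WT libraries (4 of 5 tested higher), and their part in these values was not tested. Hbb-bs and Hba-a1 were listed at 0 in all 8 libraries.

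**Figure D5:**
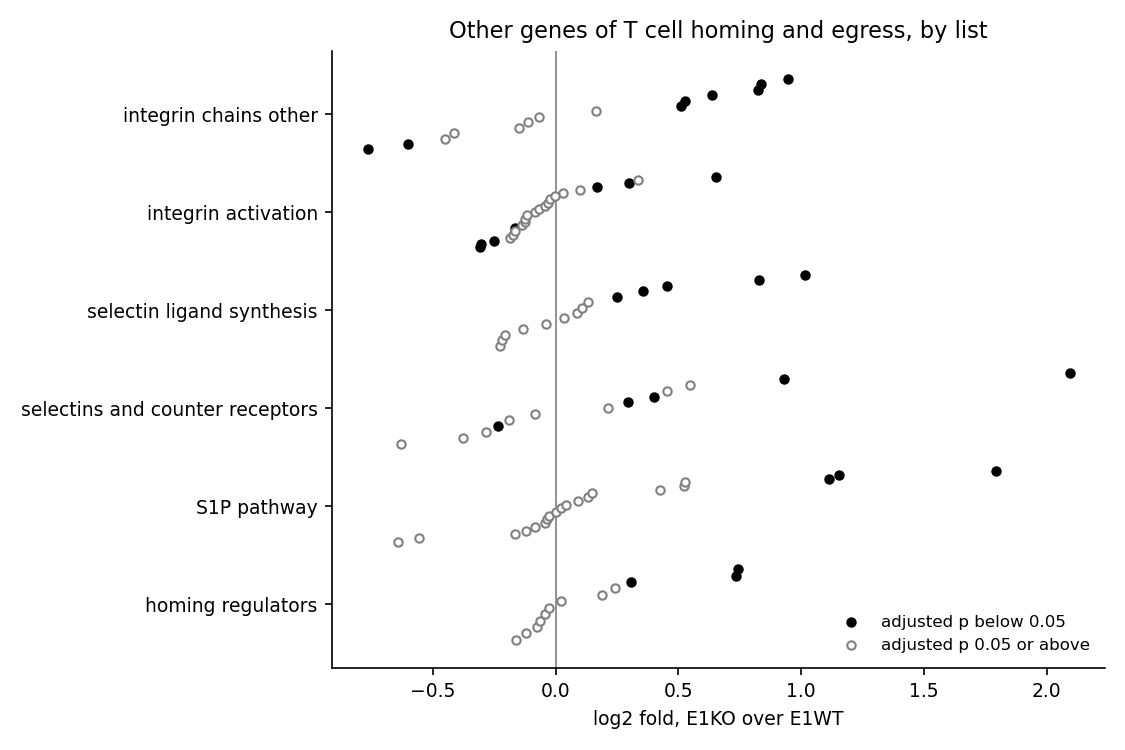
Log2 fold in E1KO over E1WT libraries (horizontal axis) for the tested genes of 6 lists, 1 point per gene, spread vertically by rank within a list. Filled points passed an edgeR adjusted p below 0.05, with 24 of them above 0 and 7 below, and the point farthest to the right is Selp at 2.09.

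Of 12 genes that regulate homing or mark its control 3 rose and 0 fell, against 12.2% and 11.1% of all tested genes. Their median log2 fold was -0.0017. Klf2, a transcription factor that in mouse T cells drives S1pr1, averaged 473 CPM in E1KO and 382 CPM in E1WT libraries and passed as higher (log2 fold 0.31 ± 0.05, edgeR adjusted p = 0.0019). Klf2 was thus higher and S1pr1 lower in the E1KO libraries. The Klf2 call held in all 17 alternatives, but that of S1pr1 in only 6. Cxcr4, the receptor for the chemokine CXCL12, stood at 86.4 ± 11.4 CPM in E1KO and 52.0 ± 7.89 CPM in E1WT libraries, and the repressor gene Zeb2 at 14.9 ± 1.74 CPM in E1KO and 8.94 ± 1.15 CPM in E1WT libraries (edgeR adjusted p = 0.0011 for each). Cd69, whose product draws S1PR1 off the surface, had a log2 fold of 0.19 ± 0.07 (edgeR adjusted p = 0.084), and Ccr7, the lymph node homing receptor, one of -0.16 ± 0.06 (edgeR adjusted p = 0.065). The last pair was named after their values were seen.

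Markers of T cells and of other cells were measured in the same libraries. A list of 6 T cell genes summed to 2751 to 2977 CPM in E1KO and 3147 to 3388 CPM in E1WT libraries, a ratio of means of 0.877. Of its members 3 were lower (Cd3g, Cd4 and Lck), and Cd3d and Cd3e did not pass. The 1 that was higher was Cd5, at 503 CPM in E1KO and 435 CPM in E1WT libraries. Regulatory T cell markers summed to 651 to 685 CPM in E1KO and 463 to 515 CPM in E1WT libraries (4 of 6 higher), and memory and effector markers to 761 to 797 CPM and 614 to 651 CPM in E1KO and E1WT libraries (2 of 9 higher). Those 2 were Il2rb, the largest part of the sum, at 430 CPM in E1KO and 310 CPM in E1WT libraries, and Ccl5. The other 7 memory and effector genes did not pass. Naive T cell markers summed to 4281 to 4407 CPM in E1KO and 4350 to 4473 CPM in E1WT libraries (2 higher and 1 lower of 6). That sum joins large changes in opposite directions. Igfbp4 was higher, at 1310 CPM in E1KO and 882 CPM in E1WT libraries, as was Dapl1, at 67.3 and 43.5 CPM. Tcf7 was lower, at 1390 CPM in E1KO and 1802 CPM in E1WT libraries. Plasma cell markers summed to 724 to 925 CPM in E1KO and 469.5 to 682 CPM in E1WT libraries (1 of 5 higher). Most of that sum was Jchain, the gene that passed, at 803 CPM in E1KO and 555 CPM in E1WT libraries. CD8+ T cell markers summed to 20.3 to 27.9 CPM in E1KO and 25.4 to 31.0 CPM in E1WT libraries (1 of 2 lower). B cell markers summed to 245 to 258 CPM in E1KO and 243 to 271 CPM in E1WT libraries (1 higher and 2 lower of 8). Sums for NK cells (83.3 to 90.9 CPM in E1KO and 86.1 to 94.3 CPM in E1WT libraries) and neutrophils (40.1 to 45.1 CPM in E1KO and 40.3 to 43.6 CPM in E1WT libraries) also overlapped. Of 7 neutrophil genes tested, 3 were lower (Ngp, S100a8 and Ltf) and 1 was higher (Mpo, the largest part of the sum, at 29.0 CPM in E1KO and 24.0 CPM in E1WT libraries), with a median log2 fold of -0.78. Of 6 NK genes tested 1 was higher, and the NK gene Klra8 was listed at 0 throughout. The part of these differences in the values of the 9 homing genes was not tested.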

How the data were processed

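RNA of 8 libraries was sequenced from both ends, per the labels' protocols. The submitters' processing notes name TopHat2 2.1.0, HTSeq 0.9.1 and mm10, and the sources used here do not give the annotation or strand setting. Each deposited file lists raw counts by gene symbol. Its 5 rows without a gene, 28.2% to 30.8% of counts in E1KO and 33.3% to 37.0% in E1WT files, were dropped. They include reads aligned to several places, so genes with near-identical copies lose reads.

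Titles set the groups. The test was edgeR 4.0.16 (R 4.3.3) with TMM scaling, its default filter (count minimum 10, total minimum 15) and Benjamini-Hochberg adjustment at 0.05, and was tested on simulated data. TMM factors were 1.01 to 1.03 in E1KO and 0.965 to 0.990 in E1WT libraries. They thus lowered every E1KO value relative to the E1WT values. CPM carry the TMM factors. CPM are given with standard deviations and log2 folds with a standard error, the fold over the square root of F. Profile neighbours needed a mean log2 CPM of 4 or more (prior count 2). The members and lists were chosen with earlier results of these data known. The text names the members, Pcbp1, their profile neighbours and, per list, the called genes of smallest p (at most 4). Some genes that this rule names are not reported here. Any other gene checks the labels, belongs to a marker list, overlaps a member or is said to be named after its values were seen. Positions and exon lengths are from GENCODE M21 (GRCm38, which is mm10). Alternatives changed the scaling, the filter, the tool (DESeq2 1.42.0, limma 3.58.1 with voom), the block, the libraries left in or the exon-length trend. Within a title, libraries differed by more than sampling noise (chi-square per degree of freedom 4.00 to 64.8). The labels do not say that each library is a separate mouse, so p-values measure the spread between libraries.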

Additional observations from a re-analysis of the deposited data

How the results depend on the processing

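Itgal and Itga6 kept their direction and passed under all 17 alternatives, at log2 folds of -0.62 to -0.52 and -0.56 to -0.41. With library totals alone 1 member was called higher and 2 lower, with log2 folds of 0.21 for Selplg (now past the threshold), -0.14 for Itgb2 and -0.083 for S1pr1 (both no longer past it). S1pr1 was also not called without a filter on low counts (-0.15) or without E1KO 1 and E1WT 4 together (-0.14). Itgb1 was called in DESeq2 (-0.19), without E1KO 1 and E1WT 4 together (-0.19) and with the exon-length trend removed (-0.21). Itgb7 changed sign with DESeq2 size factors in edgeR (-0.011), in DESeq2 (-0.010), without a filter (-0.00032), without E1KO 1 and E1WT 4 together (-0.0029) and with the trend removed (-0.058), and was called in none of these. The causes were not tested. Leaving out each library in turn gave 3 to 6 members lower and log2 folds of -0.22 to -0.15 for Itgb1, -0.16 to -0.13 for S1pr1, -0.27 to -0.13 for Itga4, 0.037 to 0.11 for S1pr4 and -0.0098 to 0.015 for Itgb7. The difference in the log2 ratio of Itga4 to Itgb1 was then -0.067 to 0.019, and 4 to 10 genes of the homing lists were lower. With library totals alone 4 of them were lower. Across all genes 1151 to 2257 were higher and 1005 to 1817 lower under the alternatives. Same-numbered libraries did not deviate together (correlations -0.10 to 0.014). Differently numbered ones ranged from -0.32 to 0.26. The exon-length trend was left in these values, so they cannot exclude a pairing by number. With the replicate number as a block, the number of members lower was 2, and Itgb2 (-0.20) and S1pr1 (-0.15) were not called. Each of the 9 genes had at least 6233 reads in every library, and fits at reduced depth were not run.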
